A study of Bos indicus with 9 samples.

Results

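The insulin-like growth factor (IGF) system was followed in corpora lutea of cows through 10 genes: the ligands IGF1 and IGF2, the receptors IGF1R and IGF2R, and the binding proteins IGFBP1 to IGFBP6. Its members are all probe sets to which the array's probe table gives 1 of these gene symbols. There were 19 such probe sets among 23953 tested, and 10 genes among 9140 with a symbol. The animals were Nelore crossbred cows (Bos indicus) aged 2 to 5 years, all with ovulation synchronised by a progesterone device and estradiol benzoate. Control animals (n = 3) received no equine chorionic gonadotropin (eCG), a gonadotropin of the pregnant mare that acts in cattle like follicle-stimulating and luteinising hormone. Stimulated animals (n = 3) were given eCG at a dose of 400 IU, on day 8 of the synchronisation, and superovulated animals (n = 3) at 2000 IU, on day 4. Dose and day therefore cannot be told apart between the treated groups. The corpus luteum, the progesterone-secreting gland that forms from an ovulated follicle, was taken on day 6 after ovulation, and the RNA of each animal was hybridised to 1 Affymetrix bovine array. How many glands of a superovulated cow entered a sample is not given in the sources used here.

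IGF1 and IGF2 are small secreted peptides related to insulin, and both signal mainly through the tyrosine kinase receptor IGF1R. IGF2R, the mannose 6-phosphate receptor, binds IGF2, takes it up for breakdown and also carries lysosomal enzymes to lysosomes. The binding proteins hold the ligands in tissue fluid and blood, and proteases that cut them set the ligands free. In the ovary the system is known for supporting the growth of follicles and the steroid output of luteal cells together with gonadotropins.

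No member differed between groups after adjustment over the whole array. The moderated test of limma passed 0 of 19 member probe sets at a Benjamini-Hochberg adjusted p under 0.05 in each of the 3 comparisons of groups. Over all probe sets the percentage passing was 0.00417 for stimulated against control, 0 for superovulated against control and 0.00417 for superovulated against stimulated. Signals are read as log2 values, so a difference of 1 would be a doubling. At an unadjusted p under 0.05 the member probe sets numbered 2 of 19 in each comparison, all higher in the group named first. Over all probe sets the percentage was 6.4, 6.19 and 9.64 in either direction and 3.67, 2.59 and 4.05 for higher signals. Several of these probe sets belong to 1 gene, so they are not separate observations. The median log2 fold change over the 19 probe sets was 0.06, 0.11 and 0.04 in the same order, against 0.00, 0.00 and 0.01 over all tested probe sets. Both comparisons against control use the same 3 control animals.

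**Figure D1:**
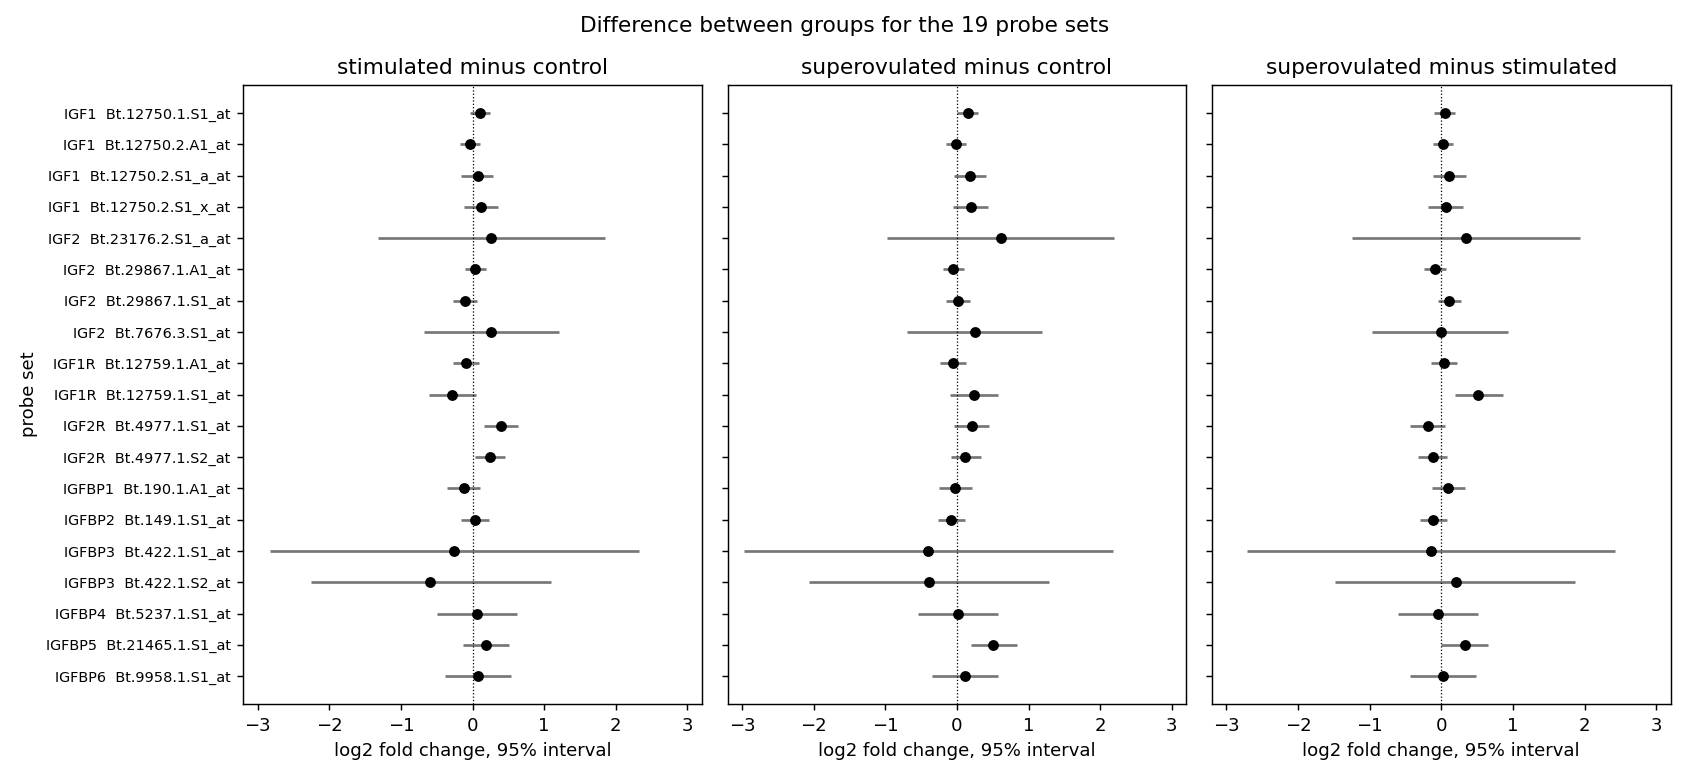
Log2 fold change of each of the 19 probe sets (points) with its 95% confidence interval from the limma fit (lines), for the 3 comparisons of groups, n = 3 animals per group. Intervals of IGFBP3 and of the brighter IGF2 probe sets are the widest, and those of IGF2R are narrow and lie above 0 for stimulated minus control.

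The tissue check found luteal genes bright on every array. The mean signal of 7 measured markers of steroidogenic luteal cells ran from 12.97 to 13.28 over the 9 animals, and 0 of the 7 had a mean signal under 3. The steroidogenic gene STAR was at 14.76 ± 0.11, 14.79 ± 0.02 and 14.67 ± 0.13 (SD, n = 3) in control, stimulated and superovulated animals, and LHCGR, the receptor for luteinising hormone, at 6.13 ± 0.84, 6.22 ± 0.26 and 6.56 ± 0.05. Over all probe sets the lower quartile of the mean signal was 2.72 and the median 4.23, and a mean signal under 3 is called dim here. A brighter probe set need not mean a more abundant transcript, and percentiles are given only to say how dim a probe set was.

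The ligand IGF1, a peptide made in liver under growth hormone and in many tissues locally, was dim on all 4 of its probe sets. The brightest, Bt.12750.2.A1_at, had 2.97, 2.88 and 2.91 in control, 2.91, 2.91 and 2.85 in stimulated and 2.97, 2.84 and 2.91 in superovulated animals. Its groups overlapped throughout, and the log2 fold change was -0.03 (95% interval -0.17 to 0.11) for stimulated and -0.01 (-0.15 to 0.13) for superovulated against control. Of all probe sets 30.1% had a mean signal at or below it.

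The dimmest IGF1 probe set, Bt.12750.1.S1_at, had 1.65, 1.60 and 1.72 in control, 1.80, 1.74 and 1.74 in stimulated and 1.87, 1.77 and 1.78 in superovulated animals. Every treated animal lay above every control animal, within a range of 0.27. Only 1.2% of probe sets had a mean as low. The difference was 0.15 (SE 0.06, adjusted p = 0.802, n = 3) for superovulated and 0.10 (SE 0.06, adjusted p = 0.863) for stimulated against control. The other 2 IGF1 probe sets, Bt.12750.2.S1_a_at and Bt.12750.2.S1_x_at, ran from 2.41 to 2.79 and from 2.26 to 2.76, and their superovulated means were above control by 0.18 and 0.19. All 4 IGF1 probe sets stayed under 3 on every array, so the array gave little signal from which to read IGF1.

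IGF2, the fetal growth factor whose gene is imprinted, was bright on Bt.7676.3.S1_at. Control animals had 11.00, 11.41 and 11.06, stimulated animals 10.81, 12.33 and 11.12, and superovulated animals 11.13, 12.00 and 11.08. The animal labelled replicate 2 was the highest in each group, and the groups overlapped fully. The log2 fold change was 0.26 (95% interval -0.68 to 1.21, adjusted p = 0.938) for stimulated and 0.25 (-0.70 to 1.19, adjusted p = 0.946) for superovulated against control.

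A second IGF2 probe set, Bt.23176.2.S1_a_at, gave the same animals as high. It had 6.07, 7.11 and 6.91 in control, 5.72, 8.39 and 6.77 in stimulated and 6.57, 8.12 and 7.24 in superovulated animals. Its range over the 9 animals was 2.67, and its log2 fold changes against control were 0.26 (SE 0.68) and 0.61 (SE 0.68). Single animals turned the first of these. It was -0.452 without stimulated replicate 2 and -0.050 without control replicate 1. On the brighter probe set it was -0.192 without stimulated replicate 2, and superovulated against control was -0.052 without superovulated replicate 2. The remaining IGF2 probe sets had low signals, from 2.95 to 3.19 on Bt.29867.1.A1_at and from 1.78 to 2.05 on Bt.29867.1.S1_at, and did not follow this order of animals.

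Markers of connective tissue, of pericytes and smooth muscle, and of macrophages also stood high in the treated animals with high IGF2. The mean signal of 7 measured fibroblast markers was 12.57 in stimulated replicate 2 against 11.78 and 12.02 in the other stimulated animals. It was 13.12 in superovulated replicate 2 against 12.44 and 12.20, and 12.37 to 12.50 among controls. The mean of 7 pericyte and smooth muscle markers was highest in replicate 2 of every group, at 9.47, 9.42 and 9.66, and the other 6 animals ran from 8.56 to 9.52. The mean of 8 macrophage and myeloid markers was likewise highest in replicate 2 of every group, at 6.87, 8.70 and 8.39, and that of the 7 steroidogenic markers lowest, at 12.97, 13.04 and 13.04. None of these markers had a mean signal under 3. The mean of 7 endothelial markers, with VWF and KDR under 3, was 7.51, 7.51 and 7.28 in replicate 2 of the groups. That was the highest value among controls and stimulated animals, but superovulated replicate 1 had 7.34. The part of any of these cells in the IGF2 signal was not tested. In whole tissue, fewer cells of a type and less RNA per cell cannot be told apart.

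**Figure D2:**
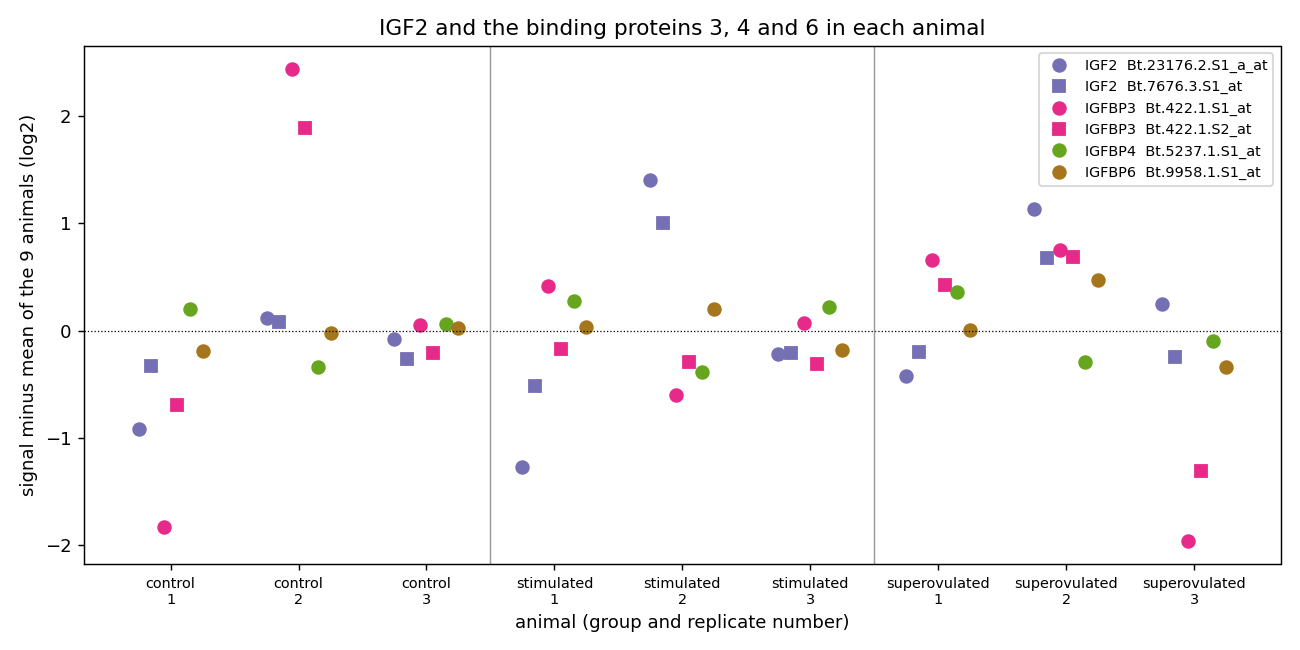
Signal of 6 probe sets in each of the 9 animals, as the difference from that probe set's mean over all animals (log2). IGF2 (circles and squares for its 2 brighter probe sets) stands high in stimulated and superovulated replicate 2, IGFBP4 is lowest of its group in the same animals and in control replicate 2, and IGFBP3 reaches its highest value in control replicate 2.

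Among the receptors, IGF2R, the scavenger of IGF2, had the smallest p of any member in the comparison of stimulated with control. Its probe set Bt.4977.1.S1_at had 9.63, 9.82 and 9.59 in control, 10.04, 9.96 and 10.25 in stimulated and 9.82, 10.01 and 9.83 in superovulated animals. All 3 stimulated animals lay above all 3 controls, with a log2 fold change of 0.40 (SE 0.10, 95% interval 0.16 to 0.64, unadjusted p = 0.00518, adjusted p = 0.571 in limma). The superovulated animals had 0.21 (SE 0.10, adjusted p = 0.819) over control and lay in between, without a difference from stimulated animals that passed (-0.19, SE 0.10, adjusted p = 0.598).

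The brighter IGF2R probe set, Bt.4977.1.S2_at, gave the same order of groups. It had 12.08, 12.17 and 11.99 in control, 12.20, 12.30 and 12.47 in stimulated and 12.13, 12.22 and 12.25 in superovulated animals. Stimulated animals did not overlap with controls, although the closest values differed by little, and the difference was 0.25 (SE 0.09, adjusted p = 0.718). The superovulated difference was 0.12 (SE 0.09, adjusted p = 0.861), with overlap. Leaving out any 1 array left the stimulated difference between 0.315 and 0.47 on the first and between 0.172 and 0.308 on the second probe set.

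Other measures differed between the same groups as IGF2R. The mean signal of 8 measured macrophage and myeloid markers was 5.57 to 6.87 in control, 7.34 to 8.70 in stimulated and 7.21 to 8.39 in superovulated animals, and 8 of the 8 had positive differences against control in both treated groups. None of the 8 had a mean signal under 3. The difference between the 3' and the 5' probe sets of the cyclophilin control, a sign of RNA integrity, was the 1 of 6 such pairs in which controls overlapped with neither treated group. It was 0.14 to 0.18 in control, 0.24 to 0.32 in stimulated and 0.23 to 0.31 in superovulated animals. For the GAPD control the same difference was -0.08 to -0.03 in control, -0.02 to 0 in stimulated and -0.04 to 0.02 in superovulated animals. Controls there overlapped with superovulated but not with stimulated animals. The part of any of these in the IGF2R values was not tested.

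IGF1R, the signalling receptor of both ligands, was measured at low signal. Its probe set Bt.12759.1.S1_at had 3.82, 3.57 and 3.75 in control, 3.24, 3.35 and 3.70 in stimulated and 3.81, 3.90 and 4.15 in superovulated animals. All superovulated animals lay above all stimulated animals, and controls overlapped with both. The difference of superovulated from stimulated was 0.52 (SE 0.14, 95% interval 0.19 to 0.86, unadjusted p = 0.00676, adjusted p = 0.382), and leaving out any 1 array left it between 0.425 and 0.658. Against control the values were -0.28 (SE 0.14, adjusted p = 0.819) for stimulated and 0.24 (SE 0.14, adjusted p = 0.846) for superovulated animals.

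The other IGF1R probe set, Bt.12759.1.A1_at, was dim at a mean signal of 2.06 and did not share this order. It gave little signal from which to read IGF1R. It ran from 1.87 to 2.15 over the 9 animals, and its difference of superovulated from stimulated was 0.04 (SE 0.08). With the mean of both IGF1R probe sets, which counts the dim one equally, the difference was 0.281. In the same comparison the mean signal of 6 follicular granulosa and theca markers was 5.96 to 6.44 in stimulated and 5.34 to 5.77 in superovulated animals, with FSHR, AMH and CYP17A1 under 3. The 3' minus 5' difference of the GST array control was -0.78 to -0.30 in stimulated and -0.20 to -0.10 in superovulated animals. The part of either in the IGF1R values was not tested.

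The binding proteins differed in signal and in spread between animals. IGFBP3, the main carrier of IGFs in blood, varied most. Its brighter probe set, Bt.422.1.S1_at, had 7.49, 11.75 and 9.37 in control, 9.73, 8.72 and 9.39 in stimulated and 9.98, 10.07 and 7.36 in superovulated animals. Control replicate 2 stood far above the other animals, control replicate 1 and superovulated replicate 3 stood far below, and the whole range was 4.39. The pooled SD within groups was 1.55, which 99.7% of all tested probe sets did not exceed, and 99.8% of those with a mean signal in the top quartile.

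A second IGFBP3 probe set, Bt.422.1.S2_at, placed the same animals at the extremes. It had 8.47, 11.05 and 8.96 in control, 8.99, 8.87 and 8.85 in stimulated and 9.59, 9.85 and 7.86 in superovulated animals, with a pooled SD of 1.01. The log2 fold change against control was -0.26 (95% interval -2.83 to 2.32) for stimulated and -0.40 (-2.97 to 2.18) for superovulated animals on the first probe set. Without control replicate 2 these became 0.848 and 0.708. Their sign also turned without 1 treated animal, to 0.024 without stimulated replicate 2 and to 0.492 without superovulated replicate 3. The intervals leave room for a change of several-fold in either direction.

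**Figure D3:**
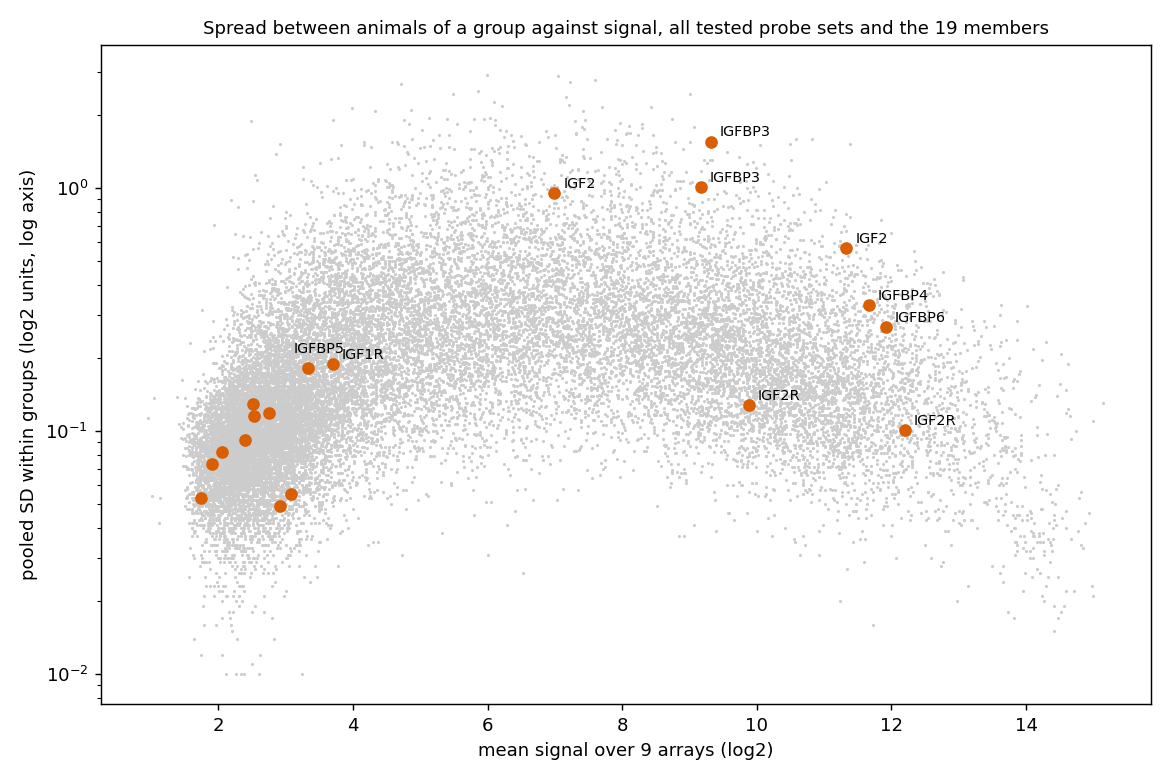
Pooled SD within groups (vertical, log axis) against the mean signal over 9 arrays (horizontal, log2) for all tested probe sets (grey) and the 19 IGF system probe sets (orange, gene symbols given above a mean signal of 3.2). The 2 IGFBP3 and the 2 brighter IGF2 probe sets lie near the upper edge for their signal, and the 2 IGF2R probe sets lie low.

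IGFBP4, which restrains IGF action until it is cut by the protease PAPPA, was bright and overlapped in all groups. Bt.5237.1.S1_at had 11.86, 11.32 and 11.72 in control, 11.94, 11.27 and 11.88 in stimulated and 12.02, 11.37 and 11.56 in superovulated animals. The animal labelled replicate 2 was the lowest in each group, the reverse of IGF2. The group means were 11.63 ± 0.28, 11.69 ± 0.37 and 11.65 ± 0.33 (SD, n = 3), and the difference from control was 0.06 (95% interval -0.50 to 0.62) for stimulated and 0.01 (-0.54 to 0.57) for superovulated animals.

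IGFBP6, which prefers IGF2 over IGF1, was bright as well. Bt.9958.1.S1_at had 11.73, 11.90 and 11.94 in control, 11.95, 12.12 and 11.74 in stimulated and 11.93, 12.39 and 11.58 in superovulated animals. The highest and the lowest value of all 9 animals both came from the superovulated group. Its differences from control were 0.08 (95% interval -0.38 to 0.54) and 0.11 (-0.35 to 0.57), and without superovulated replicate 2 the latter was -0.108.

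IGFBP5, a binding protein that also attaches to extracellular matrix, had the smallest p of any member in the comparison of superovulated with control. Bt.21465.1.S1_at had 2.99, 3.21 and 3.09 in control, 3.27, 3.27 and 3.31 in stimulated and 3.30, 3.88 and 3.65 in superovulated animals. Every treated animal lay above every control animal. The difference was 0.51 (SE 0.14, 95% interval 0.19 to 0.84, unadjusted p = 0.00662, adjusted p = 0.721) for superovulated and 0.19 (SE 0.14, adjusted p = 0.881) for stimulated animals. Superovulated over stimulated animals it was 0.33 (SE 0.14, adjusted p = 0.515), with superovulated replicate 1 within the stimulated range. The signal was low, with 38.8% of probe sets at or below it. Leaving out superovulated replicate 2 lowered the difference from control to 0.376, and leaving out superovulated replicate 1 raised it to 0.668.

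The animal with the highest IGFBP5, superovulated replicate 2, also had the highest mean of the 7 fibroblast markers (13.12) and of 7 markers of surface epithelium and oviduct (4.09, against 3.11 to 3.35 in the other 8 animals). Of the epithelial markers KRT8, KRT19, EPCAM and OVGP1 had mean signals under 3. Superovulated replicate 3, the next in IGFBP5, had fibroblast markers at 12.20, below the 3 controls. Between the groups, the mean of the 8 macrophage and myeloid markers was 7.21 to 8.39 in superovulated and 5.57 to 6.87 in control animals. The 3' minus 5' difference of the cyclophilin control was 0.23 to 0.31 against 0.14 to 0.18. Both also differed between stimulated and control animals, as given beside IGF2R. The mean of the 6 follicular granulosa and theca markers was 5.34 to 5.77 in superovulated and 5.80 to 6.33 in control animals. The 3' minus 5' difference of the eIF-4E control was 2.82 to 3.04 against 2.68 to 2.79, and that of the GST control -0.20 to -0.10 against -0.73 to -0.37. The part of any of these in the IGFBP5 values was not tested.

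IGFBP1, a liver and decidual binding protein lowered by insulin, and IGFBP2, a carrier found in blood and many tissues, were dim. On Bt.190.1.A1_at, IGFBP1 had 2.78, 2.69 and 2.93 among controls, 2.66, 2.67 and 2.71 after stimulation and 2.66, 2.71 and 2.97 after superovulation. On Bt.149.1.S1_at, IGFBP2 had 2.38, 2.50 and 2.34, then 2.52, 2.52 and 2.29, then 2.38, 2.31 and 2.31 in the same order. Groups overlapped for both. Their differences from control were -0.12 (SE 0.10) and 0.03 (SE 0.08) in stimulated and -0.02 (SE 0.10) and -0.08 (SE 0.08) in superovulated animals. In the RefSeq gene table of the assembly NIAB-ARS_B.indTharparkar_mat_pri_1.0, used for names and gene order, IGFBP1 stands next to IGFBP3 and IGFBP2 next to IGFBP5. IGFBP1 stayed under 3 on every array, including control replicate 2, where its neighbour IGFBP3 was highest.

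**Figure D4:**
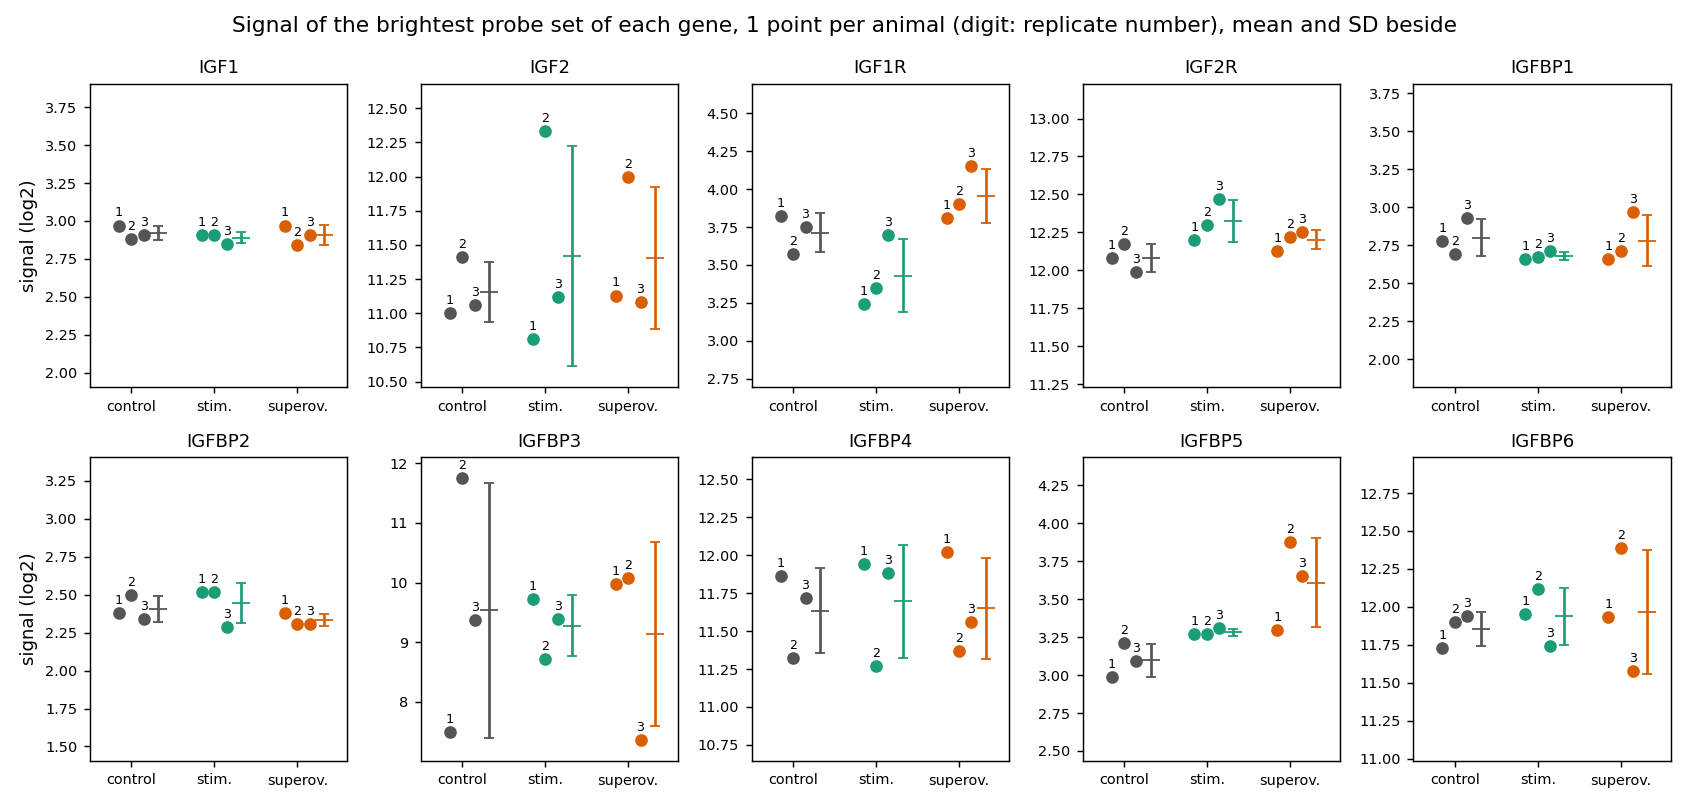
Signal (log2) of the brightest probe set of each of the 10 genes in every animal (points, with the replicate number), with the group mean and SD beside (n = 3). Axes differ in level and, for IGF2 and IGFBP3, in length. The treated animals lie above all controls for IGFBP5 and stimulated animals lie above all controls for IGF2R, while IGF2, IGFBP3, IGFBP4 and IGFBP6 overlap in all groups.

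Counted by overlap, 4 of 19 member probe sets had no overlap between stimulated and control animals, against 11.5% of all probe sets, or 5.8% with higher signals. These were the dimmest IGF1 probe set, both IGF2R probe sets and IGFBP5. Superovulated and control animals did not overlap for 4 of 19, against 10.9% of all probe sets, or 5.18% with higher signals. They were 2 IGF1 probe sets, Bt.4977.1.S1_at of IGF2R and IGFBP5. The closest control and superovulated values on that IGF2R probe set were both 9.82 after rounding. On the dim IGF1 probe set Bt.12750.2.S1_x_at they were 2.50 and 2.51. Superovulated and stimulated animals did not overlap for 2 of 19, against 13.5% of all, or 6.65% with higher signals, namely IGF1R and a dim IGF2 probe set. The moderated F test over the 3 groups passed 0 members, against 0.00417% of all probe sets. Its unadjusted p was under 0.05 for 3 of 19, against 7.69% of all probe sets, namely IGF2R (0.0159 on Bt.4977.1.S1_at), IGFBP5 (0.0189) and IGF1R (0.0204), with adjusted p values of 0.552, 0.574 and 0.574.

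Other carriers, proteases and hormones around the IGFs were given by a list of 19 genes, of which 13 were measured. In limma 0 of the 13 passed in any comparison. At an unadjusted p under 0.05 the counts were 0 for stimulated against control, 1 lower for superovulated against control, and 1 higher and 1 lower for superovulated against stimulated, and the percentage among all named genes was 7.26, 5.25 and 9.05. The median log2 fold changes were 0.02, 0.11 and 0.01. IGFBP7, a low-affinity relative of the binding proteins that is known from vessels, was among the brightest probe sets at 13.77 ± 0.21 in control, with 0.19 (SE 0.13) in stimulated animals. HTRA1, a serine protease that cuts binding proteins such as IGFBP5, had 0.15 (SE 0.12) in stimulated and 0.16 (SE 0.12) in superovulated animals. IGFALS, the partner of IGFBP3 in blood, had 0.18 (SE 0.09) in superovulated animals and 0.15 (SE 0.09) over stimulated ones, and ADAM12, a protease of IGFBP3 and IGFBP5, had 0.45 (SE 0.32) for superovulated over stimulated animals. INS and IGF2BP1, for insulin and an RNA-binding protein of IGF2 transcripts, were dim, with -0.10 (SE 0.07) and -0.07 (SE 0.07) in stimulated animals. INS had 0.09 (SE 0.07) in superovulated animals and was the 1 higher gene for superovulated over stimulated animals, at 0.19 (SE 0.07, adjusted p = 0.488).

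The insulin receptor INSR, which can also pair with IGF1R, was the 1 lower gene in both comparisons of superovulated animals. Its brightest probe set, Bt.28461.2.S1_a_at, had 4.73, 4.49 and 3.66 in control, 4.28, 3.64 and 5.48 in stimulated and 3.72, 2.63 and 2.29 in superovulated animals. Superovulated replicate 1 overlapped with both other groups, and the other superovulated animals lay below them. INSR differed by -1.41 (SE 0.55, adjusted p = 0.802) from control and by -1.59 (SE 0.55, adjusted p = 0.458) from stimulated animals. A second probe set, Bt.28461.1.S1_a_at, had -0.87 and -1.09 with all superovulated animals below the other groups, and the other 3, all with mean signals under 3, had values from -0.07 to 0.15 in these comparisons.

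For signalling below the receptors, 26 of 42 listed genes were measured and 0 passed in limma. At an unadjusted p under 0.05 there were 0 for stimulated against control, 1 lower for superovulated against control and 2 lower for superovulated against stimulated, against the 7.26, 5.25 and 9.05% of all named genes. The medians were -0.01, 0.05 and 0.06, and those of all named genes 0.00, 0.01 and 0.01. TSC1, a brake on the growth kinase mTOR, had 4.79, 4.21 and 4.61 in control, 4.21, 3.94 and 4.58 in stimulated and 3.78, 3.79 and 3.83 in superovulated animals. The superovulated animals lay below all others, by -0.74 (SE 0.19, adjusted p = 0.721) against control and -0.44 (SE 0.19, adjusted p = 0.514) against stimulated animals. EIF4EBP1, a translation repressor that mTOR inactivates, had -0.43 (SE 0.21) and -0.53 (SE 0.21) in the same comparisons. The mean of the follicular markers given beside IGFBP5, at 5.96 to 6.44 in stimulated animals, was likewise lower in all superovulated animals than in all others. The closest control and superovulated values were 5.80 and 5.77. In limma 0 of the 6 markers had an unadjusted p under 0.05 in either comparison. The GST 3' minus 5' difference, -0.20 to -0.10 in superovulated animals, was higher than in all others, at -0.78 to -0.30. The part of either in the TSC1 and INSR values was not tested. SHC1, an adaptor of tyrosine kinase receptors, had 0.26 (SE 0.12) in stimulated and 0.18 (SE 0.12) in superovulated animals on its brightest probe set. Its probe sets differed: Bt.4279.2.S1_at had 6.81, 6.76 and 6.67 in control, 6.96, 7.05 and 7.11 in stimulated and 7.58, 7.37 and 7.28 in superovulated animals. No groups overlapped there, with 0.66 (SE 0.09, unadjusted p = 0.00011, adjusted p = 0.486 in limma) for superovulated and 0.29 (SE 0.09, adjusted p = 0.697) for stimulated against control, and 0.37 (SE 0.09, adjusted p = 0.368) between the treated groups. The other, Bt.4279.1.S1_at, had 0.30 (SE 0.11) in superovulated and 0.26 (SE 0.11) in stimulated animals against control. Of all probe sets 11.5% had no overlap between stimulated and control, 10.9% between superovulated and control and 13.5% between treated groups. The macrophage markers and cyclophilin difference given beside IGF2R also separated controls from both treated groups. The GST and eIF-4E differences given beside IGFBP5 separated superovulated animals from controls. The part of any of these in the SHC1 values was not tested. PIK3R1, a regulatory subunit of phosphoinositide 3-kinase, had -0.29 (SE 0.19) in stimulated animals and 0.38 (SE 0.19) for superovulated over stimulated animals. PIK3R3, of the same family, had -0.13 (SE 0.09) and TSC1 -0.29 (SE 0.19) in stimulated animals, MAPK3 had 0.23 (SE 0.15) in superovulated animals, and GSK3B had 0.71 (SE 0.38) for superovulated over stimulated animals. Without superovulated replicate 3 that GSK3B value was 0.282, and its other probe sets had 0.44 and -0.05.

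Growth hormone drives IGF1 in liver, and 5 of 9 listed genes of its signalling were measured. None of the 5 passed in limma, and at an unadjusted p under 0.05 there were 1 higher for stimulated against control, 1 higher for superovulated against control and 0 for superovulated against stimulated. Their median log2 fold changes were 0.50, 0.29 and -0.13. The shares and medians over all named genes are those given for receptor signalling, and a list of 5 genes is small. PTPN6, a phosphatase of cytokine receptors that is abundant in blood cells, had 4.43, 4.28 and 4.04 in control, 4.82, 4.82 and 4.61 in stimulated and 4.40, 4.66 and 4.58 in superovulated animals. Stimulated animals lay above all controls by 0.50 (SE 0.12, adjusted p = 0.528), and superovulated animals had 0.29 (SE 0.12, adjusted p = 0.802) with overlap. The macrophage and myeloid markers given beside IGF2R differed between the same groups, and their part was not tested.

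CISH and SOCS2, feedback inhibitors induced by STAT5, had 1.06 (SE 0.49) and 0.70 (SE 0.33) in stimulated animals, both at an adjusted p of 0.783 in limma. CISH ran from 5.55 to 7.60 among controls, and its difference was 1.669 without control replicate 1 and 0.647 without control replicate 2. SOCS2 had 0.57 (SE 0.33) in superovulated animals, and CISH had -0.68 (SE 0.49) for superovulated against stimulated animals, which did not overlap. STAT5B had -0.01 (SE 0.10) in stimulated and 0.17 (SE 0.10) in superovulated animals, and SOCS3 had 0.17 (SE 0.13) in the latter, with -0.10 on its dimmer probe set. For superovulated over stimulated animals STAT5B had 0.18 (SE 0.10), SOCS3 0.16 (SE 0.13, and 0.06 on its dimmer probe set) and PTPN6 -0.21 (SE 0.12).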

How the data were processed

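The authors' table lists 24128 probe sets for 9 arrays, with 112 array controls among them. Each number the authors deposited had lost its decimal mark. The mark was restored here: a run of digits starting with 0 or 2 to 9 has 1 reading below a limit of 16, and 15.5% of values, starting with 1, had 2 readings. In 1556 probe sets, and a further 32 of middle level, the other arrays settled the reading. Where all 9 values were open, the spread between arrays and the level decided at a posterior of 0.95. Of these, 2961 were taken as 1x.x, 4 were taken as 1.x and 66 stayed undecided and unused, with 2.03 errors expected. IGF2 (Bt.7676.3.S1_at), IGF2R (Bt.4977.1.S2_at), IGFBP4 and IGFBP6 were read as 1x.x in this way. For IGF1 (Bt.12750.1.S1_at), IGF2R (Bt.4977.1.S1_at) and both IGFBP3 probe sets the other arrays settled the open values. These include the IGFBP3 values of 11.75 and 11.05 in control replicate 2. Values run from 0.85 to 15.36 and are read as log2 signals, although the deposited table states no log base. How probes were summarised and arrays normalised is not given in the sources used here. No further normalisation was applied, and array medians were 4.19 to 4.25.

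Gene symbols come from the array's probe table. All 10 members also stand in the RefSeq gene table. A gene with several probe sets is represented in lists by the brightest.

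Probe sets were fitted with limma 3.58.1 (R 4.3.3; lmFit, eBayes) with a mean for each of the 3 groups over 9 arrays, which leaves 6 residual degrees of freedom. Tests were 2-sided, with p-values adjusted by Benjamini-Hochberg over 23953 probe sets. The code was tested on simulated data. The table has 0 columns of other samples. Precision is limited by the number of arrays.

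All 19 member probe sets are described. From each pathway list the 4 genes with the smallest p per comparison are named, and other genes stand only as tissue checks or markers. INSR, SHC1, TSC1 and PTPN6 are given in more detail, chosen after their values were seen. Members and lists were chosen with earlier results of these data known. Alternatives were quantile normalisation, median centring, an intensity trend, a filter on dim probe sets, fits of 2 groups, replicate number as a block, probe sets without open values, means over a gene's probe sets, and leaving out each array.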

Additional observations from a re-analysis of the deposited data

How the results depend on the processing

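Of the 17 settings run, 16 gave members an adjusted p, and no member tested there was under 0.05. The filter on dim probe sets left 39 and the exclusion of values open to 2 readings 33 of the 57 member fold changes, and the mean of a gene's probe sets gave values only. The smallest adjusted p was 0.26, for IGF1R between superovulated and stimulated animals with the replicate block. Of the 57 member fold changes, 24 turned sign without some single array, 5 under another setting, with some in both, and 32 under none. Of the 36 other named fold changes 1 turned, that of STAT5B, and 25 moved by over 1.5 times without some single array.

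A higher floor on the densities used to restore decimal marks, tried after seeing the data, left 68 in place of 66 probe sets undecided. No member was among the 66, and members were not looked up among the 68.

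Same-numbered animals of different groups correlated at -0.03 to 0.38 in their deviations from the group means, and differently numbered ones at -0.35 to 0.25. The own number correlated best in 13 of 18 cases, and 7 of 9 same-number pairs were over 0.1. Since not every pair was, and no label says what a number stands for, the main test has no block. With the replicate block, 3 probe sets passed for stimulated against control, where 1 passed without it. The block lowered the SE of IGF2 from 0.68 to 0.31 on Bt.23176.2.S1_a_at and of IGFBP4 from 0.24 to 0.10. At an unadjusted p under 0.05 it gave 2 members higher and 1 lower (IGF1R) for stimulated against control, 1 higher for superovulated against control and 2 higher for superovulated against stimulated. Fitting only the 2 groups compared gave 1 for superovulated against control, where 0 passed. For superovulated against stimulated 1 passed, and 2 under median centring, quantile normalisation or without values open to 2 readings. Without single arrays the counts ran from 0 to 4, 0 to 1 and 1 to 3 in the 3 comparisons, and 1 to 2 for the F test.

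The brightest IGF1 probe set turned to 0.065 for stimulated and 0.126 for superovulated against control with the mean of the gene's probe sets, and to 0.006 for the latter under median centring. Between superovulated and stimulated animals, IGF2 on Bt.7676.3.S1_at turned to 0.09 with that mean and 0.015 under median centring, and IGFBP3 turned to 0.028 with that mean. Quantile normalisation turned IGFBP4 to -0.002 for superovulated and STAT5B to 0.008 for stimulated against control.

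Without single arrays, for stimulated against control, IGF2 ran from -0.452 to 0.882 on Bt.23176.2.S1_a_at and from -0.192 to 0.565 on Bt.7676.3.S1_at. IGFBP2 ran from -0.004 to 0.11, IGFBP3 from -1.282 to 0.848 and from -1.099 to 0.188, IGFBP4 from -0.094 to 0.273, IGFBP6 from -0.012 to 0.178 and STAT5B from -0.063 to 0.08. For superovulated against control, IGF1 ran from -0.041 to 0.021 on Bt.12750.2.A1_at, and IGF2 from -0.027 to 0.072 on Bt.29867.1.S1_at and from -0.052 to 0.409 on Bt.7676.3.S1_at. IGFBP1 ran from -0.114 to 0.045, IGFBP3 from -1.421 to 0.708 and from -0.903 to 0.384, IGFBP4 from -0.171 to 0.154 and IGFBP6 from -0.108 to 0.3. For superovulated against stimulated, IGF1 ran from -0.013 to 0.049 on Bt.12750.2.A1_at and from -0.014 to 0.132 on Bt.12750.2.S1_x_at, and IGF1R from -0.033 to 0.08 on Bt.12759.1.A1_at. IGF2 ran from -0.273 to 1.062 on Bt.23176.2.S1_a_at and from -0.318 to 0.439 on Bt.7676.3.S1_at, IGFBP3 from -0.608 to 0.75 and from -0.177 to 0.815, IGFBP4 from -0.258 to 0.093 and IGFBP6 from -0.188 to 0.22. The cause was not tested. Signals near the dim end limit what can be read for IGF1, IGFBP1 and IGFBP2, and the number of animals limits IGF2 and IGFBP3.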
